A study of Mus musculus with 6 samples.

Results

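The insulin and insulin-like growth factor (IGF) signalling genes examined here were 10 named transcripts (Insr, Igf1r, Igf1, Igfbp5, Irs1, Irs2, Pik3r1, Akt2, Tbc1d1 and Tbc1d4), chosen by gene symbol out of 49315 genes in the count table. All 10 were found in the table and all 10 passed the filter on low counts, which kept 15847 genes. RNA was sequenced from gastrocnemius muscle, the large fast-fibre muscle of the calf, of male mice of the inbred strain C57BL6J. At 5 months of age the muscles had received AAV9, an adeno-associated virus that enters muscle well, and they were collected 5 months later. In AAV9-HSA-CAAHR muscles (replicates 31, 34 and 36) the virus carried a constitutively active aryl hydrocarbon receptor, a form of mouse AHR that lacks its ligand-binding domain and so needs no ligand. In AAV9-HSA-GFP muscles (replicates 42, 43 and 46) it carried green fluorescent protein. Both cargos stood under the promoter of human skeletal actin (HSA), which restricts expression to muscle fibres, so other cells of the muscle were not the intended site of expression. All 6 muscles had received a virus, while muscle without virus was not analysed here. A lower level with CAAHR therefore cannot be told apart from a higher level with GFP. By quantitative PCR, the paper found selected immune genes no lower with CAAHR than in muscle without virus. It attributes their difference in sequencing to a local immune reaction to the GFP vector. The question was whether active AHR in muscle fibres altered the transcripts by which muscle receives and relays insulin and IGF signals.

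Insulin and IGF1 bind related receptor tyrosine kinases, INSR and IGF1R, which phosphorylate the adaptor proteins IRS1 and IRS2. These recruit phosphoinositide 3-kinase (PI3K) through its regulatory subunit p85α, the product of Pik3r1, and the lipid made by PI3K activates the kinase AKT2. In muscle AKT2 phosphorylates the Rab GTPase-activating proteins TBC1D4 (AS160) and TBC1D1, which releases vesicles holding the glucose transporter GLUT4 to the fibre surface. TBC1D1 is also a substrate of the energy sensor AMPK and is prominent in fast glycolytic muscle. Igf1 is made in liver, in muscle fibres and in macrophages and connective tissue cells of muscle, and IGFBP5, a secreted protein, binds IGFs outside the cell. These roles are regulated in large part by phosphorylation, which transcript counts do not measure.

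Of the 10 genes, 3 changed and 7 did not pass the test. Pik3r1 was 2.62-fold higher (95% interval 2.09 to 3.28) and Tbc1d1 was 1.49-fold higher (1.26 to 1.76) in AAV9-HSA-CAAHR muscles, while Igf1 was 0.495-fold (0.381 to 0.644) the level in AAV9-HSA-GFP muscles. A gene was called changed where its p from the edgeR quasi-likelihood test was under 0.05 after Benjamini-Hochberg adjustment over every gene tested. By this rule 1205 of 15847 tested genes were called (7.60%), 481 of them higher (3.04%) and 724 lower (4.57%), against 30.0% of the 10 members. The same 3 members were those in which the ranges of the groups did not overlap, which was so for 29.9% of all tested genes. The median log2 fold change was 0.10 over the members and 0.01 over all tested genes. A count of 10 genes does not set the list apart, and no test of the list was made.

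The regions before the transcription starts of the 3 changed genes are shown first, because AHR binds DNA at the core motif GCGTG. The windows run from 250 bases before to 50 bases after a RefSeq transcript start on GRCm38.p6, each is written 5′ to 3′ on the strand of the gene, and capitals mark GCGTG or its reverse complement CACGC. Pik3r1 had a window at a second start (chr13:101692581-101692880, minus strand) with 1 match that began 188 bases before the start. Tbc1d1 had one at a second start (chr5:64230107-64230406, plus strand) with 2 matches, at 159 and 128 bases before the start. The Igf1 window (chr10:87860861-87861160, plus strand) held 1 match, 196 bases before the start. It was the only window for Igf1 and lies inside the gene, whose annotated span begins at 87858265. That first position was not searched.
Pik3r1, second start: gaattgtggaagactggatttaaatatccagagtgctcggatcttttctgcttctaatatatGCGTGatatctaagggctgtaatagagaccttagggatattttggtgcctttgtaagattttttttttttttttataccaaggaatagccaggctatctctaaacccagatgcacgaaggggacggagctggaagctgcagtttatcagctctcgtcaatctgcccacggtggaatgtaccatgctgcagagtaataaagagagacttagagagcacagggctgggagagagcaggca
Tbc1d1, second start: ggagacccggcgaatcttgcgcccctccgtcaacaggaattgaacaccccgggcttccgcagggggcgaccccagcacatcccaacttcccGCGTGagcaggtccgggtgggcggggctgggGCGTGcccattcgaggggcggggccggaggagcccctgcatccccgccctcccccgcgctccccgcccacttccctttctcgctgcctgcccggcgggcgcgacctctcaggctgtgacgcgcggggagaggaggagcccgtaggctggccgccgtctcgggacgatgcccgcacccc
Igf1: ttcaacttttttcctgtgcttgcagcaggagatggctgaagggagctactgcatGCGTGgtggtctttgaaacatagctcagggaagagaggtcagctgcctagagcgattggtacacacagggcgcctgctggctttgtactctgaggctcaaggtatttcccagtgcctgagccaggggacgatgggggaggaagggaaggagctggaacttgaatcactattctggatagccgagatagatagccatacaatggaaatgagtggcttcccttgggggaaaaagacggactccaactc

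Windows at the other start of Pik3r1 (chr13:101768168-101768467) and of Tbc1d1 (chr5:64160010-64160309) held no match, and gene counts do not show from which start the reads came. RefSeq gave 14 windows for 9 of the 10 members, with no entry matched for Insr. GCGTG on either strand was found in 7 of those 9 genes, in 7 of the 14 windows, and in 35.2% of 27025 genes with a window, or 32.4% of 32851 windows. The 7 were Pik3r1, Tbc1d1, Igf1, Igf1r, Irs1, Irs2 and Akt2, so 4 of the genes with a match were not called. The longer form TNGCGTG, which contains GCGTG, was in none of the 14 windows and in 5.07% of all windows. The FoxO core GTAAACA was also in none of them, against 3.65% of all windows. A match is a run of letters in the window and not a measured binding site. Akt2 had 4 windows, with a match in 1 of them. Windows with a match held 71.3% to 76% G or C for Igf1r, Irs1, Irs2 and Tbc1d1. For Igf1, Pik3r1 and Akt2 they held 43.7% to 52.3%. The shares over all genes were not matched for windows per gene or base content, and no test of the motif counts was made.

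The cargo and the tissue were checked in the same table. Ahr was at 9.97 to 22.8 CPM (counts relative to library size, after TMM, trimmed mean of M values, scaling) in AAV9-HSA-CAAHR muscles and at 1.87 to 2.55 CPM in AAV9-HSA-GFP muscles, and Cyp1a1, the classical AHR target gene, was at 1231 to 1680 against 5.85 to 7.74 CPM. Library totals were 43432994 to 58825752 counts, and the lowest count of any member was 247, for Igf1 in CAAHR replicate 34. Skeletal actin (Acta1), the defining fibre transcript, was at 21660 to 22004 CPM in AAV9-HSA-CAAHR and 35143 to 37674 CPM in AAV9-HSA-GFP muscles, and was called lower (log2 fold change -0.74, edgeR adjusted p 0.00895). Markers of fibre type set 1 library apart within its group: the slow fibre list summed to 649 CPM in CAAHR replicate 34 against 2783 and 2518 CPM in replicates 31 and 36, and to 228 to 461 CPM in AAV9-HSA-GFP muscles. Fast fibre markers summed to 203512 CPM in replicate 34, to 144128 and 166639 CPM in replicates 31 and 36, and to 206954 to 216059 CPM in AAV9-HSA-GFP muscles. Nothing in the sample descriptions says how animals were matched or which part of the gastrocnemius was taken. The p-values set the difference between groups against the spread within them. They do not show whether the groups also differed in how the muscle was sampled.

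**Figure D1:**
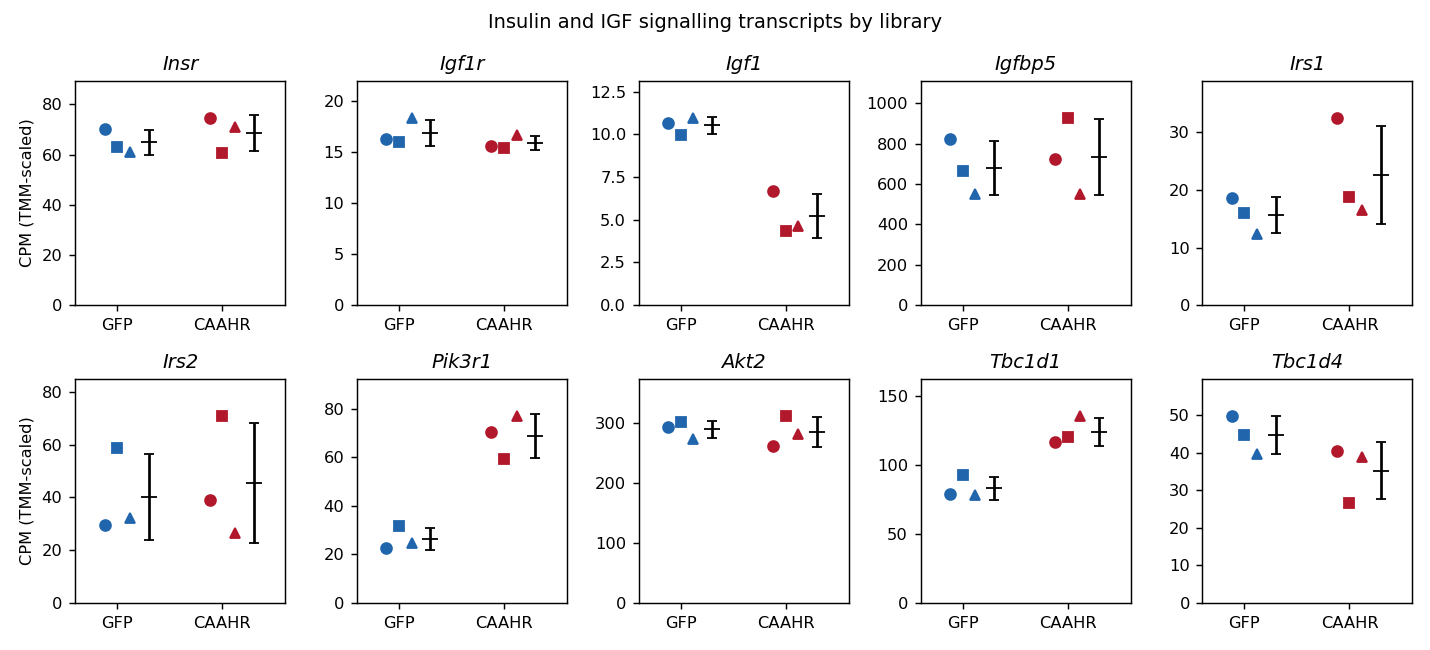
Level of each of the 10 insulin and IGF signalling transcripts in TMM-scaled CPM, with 1 point per library (blue, AAV9-HSA-GFP replicates 42, 43 and 46 as circle, square and triangle, red, AAV9-HSA-CAAHR replicates 31, 34 and 36 in the same order) and bars for mean ± SD (n = 3). Pik3r1 (59.2 to 77.0 against 22.8 to 31.6 CPM), Tbc1d1 and Igf1 are the panels in which the groups do not overlap.

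Among the ligands, Igf1 (ENSMUSG00000020053, chromosome 10, 87858265 to 87937042, GRCm38) was at 6.68, 4.32 and 4.66 CPM in AAV9-HSA-CAAHR replicates 31, 34 and 36, and at 10.7, 9.97 and 10.9 CPM in AAV9-HSA-GFP replicates 42, 43 and 46. The highest AAV9-HSA-CAAHR library lay below the lowest AAV9-HSA-GFP library. Means were 5.22 ± 1.28 and 10.5 ± 0.496 CPM (SD, n = 3), the log2 fold change was -1.01 ± 0.17 (SE), and the edgeR adjusted p was 0.00773. The analysis was repeated in 15 alternatives, which were other scalings, filters and tests, a slow fibre covariate (the mean log2 CPM of the slow fibre markers added to the model), and leaving out each library in turn. Igf1 was called in 15 of 15, with log2 fold changes from -1.44 to -0.90. In whole muscle, fewer cells of a type and less RNA per cell cannot be told apart.

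Several cell types of muscle make Igf1, and their markers were read beside it. The macrophage list summed to 27.6 to 46.7 CPM in AAV9-HSA-CAAHR and 54.7 to 119 CPM in AAV9-HSA-GFP muscles. Of 10 markers, 10 were lower in direction and none was at 0 in all libraries. Of the 10, edgeR called 0, with 8 at an unadjusted p under 0.05, DESeq2 called 7 and limma-voom 1. Of all 15847 tested genes, 23.9% were at an unadjusted p under 0.05, DESeq2 called 1919 and limma-voom 1402. Of the 9 fibroblast and fibro-adipogenic progenitor markers, 1 was called higher and 0 lower, and their sum was 494 to 834 CPM against 625 to 771 CPM. The adipocyte list had 3 of 7 markers called lower, with sums of 86.5 to 139 and 109 to 231 CPM. All 7 were lower in direction, with a median log2 fold change of -2.09. Most of each sum was Fabp4, which was at 82.8 to 118 CPM against 72.6 to 132 CPM (log2 fold change -0.03). The part of these cells in the Igf1 difference was not tested.

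**Figure D2:**
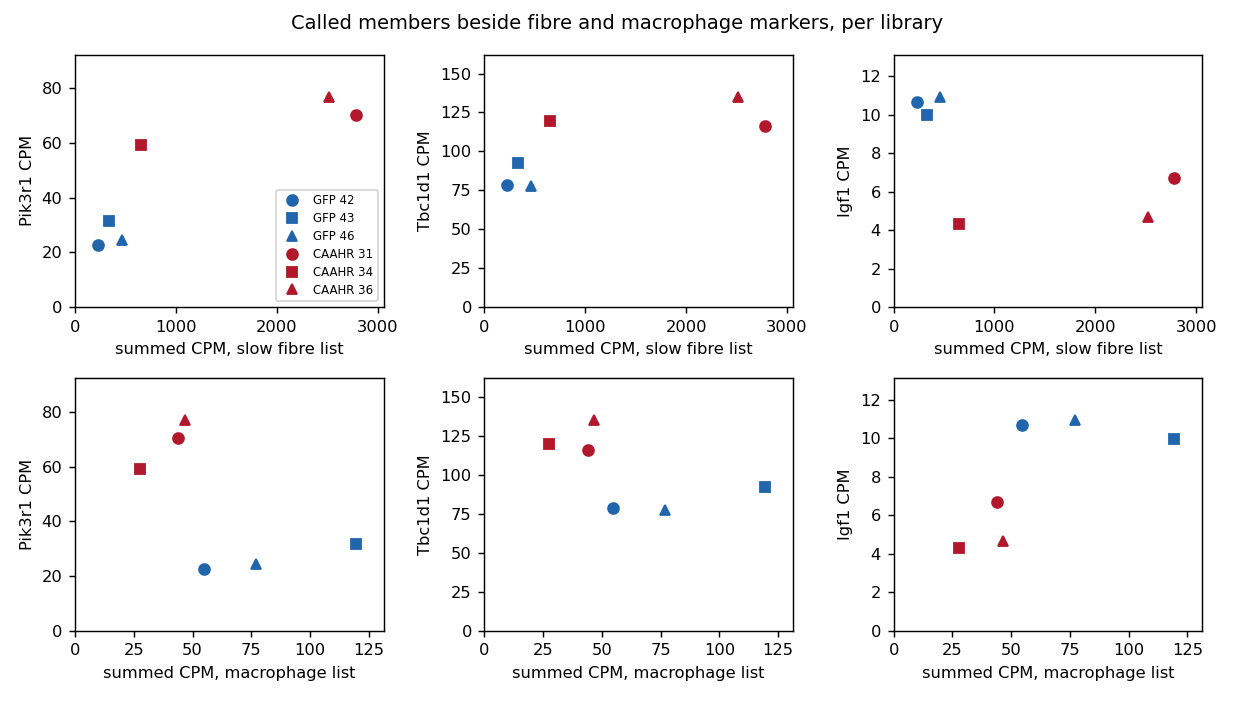
CPM of Pik3r1, Tbc1d1 and Igf1 (y axes) in each of the 6 libraries against the summed CPM of the slow fibre list (upper row) and the macrophage list (lower row), with AAV9-HSA-CAAHR in red and AAV9-HSA-GFP in blue. All 3 AAV9-HSA-CAAHR libraries lie above the AAV9-HSA-GFP libraries in slow fibre sum (649 to 2783 against 228 to 461 CPM) and below them in macrophage sum (27.6 to 46.7 against 54.7 to 119 CPM), and the part of either in the differences was not tested.

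Igf2 (ENSMUSG00000048583), the fetal IGF, was at 17.8, 13.9 and 12.1 CPM against 15.9, 16.9 and 16.6 CPM, and did not pass the test (log2 fold change -0.17 ± 0.14, edgeR adjusted p 0.495). The difference between the IGF ligands was not tested. The insulin genes themselves were not expressed at a level that could be tested, and Ins1 had 0 counts in all 6 libraries.

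Igfbp5 (ENSMUSG00000026185, chromosome 1, 72857932 to 72874884) encodes the IGF-binding protein of the set and was the most abundant member. It was at 724, 925 and 551 CPM in AAV9-HSA-CAAHR and 821, 667 and 553 CPM in AAV9-HSA-GFP muscles. The libraries of both groups were spread over the same range, and the log2 fold change of 0.11 ± 0.21 had a 95% interval from -0.36 to 0.58 (edgeR adjusted p 0.810). Its sign turned when CAAHR replicate 34, the highest library, was left out (-0.10). Among 9 tested IGF-binding proteins and their proteases other than Igfbp5, edgeR called 0, DESeq2 called 1 and limma-voom called 0. By edgeR, 3 of the 9 were at an unadjusted p under 0.05, against 23.9% of all tested genes. All 9 had a log2 fold change below 0, with a median of -0.23, while 7735 of all 15847 tested genes were below 0. The precision differed within the list, with a 95% interval from -2.37 to 1.91 for Igfbp2. All 9 stayed below 0 under each of the 3 other scalings, but 8 of 9 did with limma-voom, without CAAHR replicate 34 or without GFP replicate 46, 7 of 9 without CAAHR replicate 36, and 6 of 9 with the slow fibre covariate.

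Both receptor genes were close between the groups. Insr (ENSMUSG00000005534, chromosome 8, 3122061 to 3279617), the insulin receptor, was at 74.4, 60.7 and 70.8 CPM in AAV9-HSA-CAAHR and 70.3, 63.0 and 61.1 CPM in AAV9-HSA-GFP muscles. Its log2 fold change was 0.08 ± 0.11 (95% interval -0.16 to 0.32, edgeR adjusted p 0.701). Igf1r (ENSMUSG00000005533, chromosome 7, 67952827 to 68233668), the IGF1 receptor, was at 15.6, 15.4 and 16.7 CPM against 16.3, 16.0 and 18.3 CPM, and its log2 fold change was -0.08 ± 0.10 (-0.31 to 0.14, edgeR adjusted p 0.668). Neither gene was called in any of the 15 alternatives, and the intervals still allow small changes in either direction.

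Igf2r (ENSMUSG00000023830), the receptor that takes IGF2 and mannose 6-phosphate proteins to lysosomes and carries no insulin-like signal, is not a member but passed the test. It was at 93.8, 101 and 115 CPM in AAV9-HSA-CAAHR and 72.4, 75.2 and 76.2 CPM in AAV9-HSA-GFP muscles, and every AAV9-HSA-CAAHR library was above every AAV9-HSA-GFP library. The log2 fold change was 0.47 ± 0.10 (edgeR adjusted p 0.0236). The call was lost without CAAHR replicate 36 and without each of the 3 AAV9-HSA-GFP libraries in turn.

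The adaptor genes varied more between libraries than between groups. Irs1 (ENSMUSG00000055980, chromosome 1, 82233101 to 82291416), the adaptor most tied to the insulin response of muscle, was at 32.4, 18.7 and 16.6 CPM in AAV9-HSA-CAAHR and 18.6, 16.0 and 12.3 CPM in AAV9-HSA-GFP muscles. CAAHR replicate 31 stood above all others, the remaining libraries overlapped, and the log2 fold change was 0.53 ± 0.28 (95% interval -0.13 to 1.19, edgeR adjusted p 0.304). Without CAAHR replicate 31 it was 0.17. Over 30.9% of its exon bases Irs1 shares its position with Gm9747 on the opposite strand, which had 0 counts in every library. Whether counting used strand is not stated, so this does not show whether reads over the shared bases were counted for Irs1. The level of Irs1 per kilobase and its ratio to Irs2 carry that limit.

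Irs2 (ENSMUSG00000038894, chromosome 8, 10984681 to 11008458), the adaptor best known from liver and pancreatic islets, was at 39.0, 70.8 and 26.6 CPM against 29.5, 58.9 and 32.3 CPM. CAAHR replicate 34 and GFP replicate 43 were the highest library of their groups. The log2 fold change of 0.18 ± 0.46 had the widest 95% interval of the members, from -0.99 to 1.35 (edgeR adjusted p 0.867), and it was -0.30 without CAAHR replicate 34. That interval includes a log2 change of 1, so a doubling of Irs2 is not excluded. Irs2 overlaps 9530052E02Rik on the opposite strand over 2.56% of its exon bases.

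Pik3r1 (ENSMUSG00000041417, chromosome 13, 101680563 to 101768217), which encodes the p85α regulatory subunit of PI3K and its shorter forms p55α and p50α, had the largest log2 fold change of the 10 members. It was at 70.4, 59.2 and 77.0 CPM in AAV9-HSA-CAAHR replicates 31, 34 and 36 and at 22.8, 31.6 and 24.6 CPM in AAV9-HSA-GFP replicates 42, 43 and 46. Every AAV9-HSA-CAAHR library lay well above the highest AAV9-HSA-GFP library. Means were 68.9 ± 9.02 and 26.3 ± 4.66 CPM (SD, n = 3), and the log2 fold change was 1.39 ± 0.14 (95% interval 1.06 to 1.71, edgeR adjusted p 0.00100). By p-value it ranked 61 among 15847 tested genes.

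The Pik3r1 call held in 15 of 15 alternative analyses, with log2 fold changes from 1.03 to 1.54, the lowest with the slow fibre covariate. CAAHR replicate 34, the lowest library of its group for Pik3r1 at 59.2 CPM, was also the lowest for the slow fibre sum (649 CPM), which still lay above the highest AAV9-HSA-GFP sum (461 CPM). The slow fibre covariate was 7.49, 5.39 and 7.39 in AAV9-HSA-CAAHR replicates 31, 34 and 36. It was 3.83, 4.30 and 4.83 in AAV9-HSA-GFP replicates 42, 43 and 46. Its values did not overlap between the groups, so that fit does not fully separate fibre type from the vector. The part of fibre type in the Pik3r1 difference was not tested. The forms p85α, p55α and p50α start at different promoters, and gene counts do not separate them.

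The other subunits of PI3K were read from the list of PI3K, PDK1, AKT and GSK3 genes. Of these 13 were tested, 0 were called higher and 1 was called lower (7.69%, against 7.60% of all tested genes). Pik3cd (ENSMUSG00000039936), the p110δ catalytic subunit known from leukocytes, was at 9.02, 10.5 and 8.28 CPM in AAV9-HSA-CAAHR and 18.7, 19.3 and 23.6 CPM in AAV9-HSA-GFP muscles. The groups did not overlap, and the log2 fold change was -1.15 ± 0.13 (edgeR adjusted p 0.00135). The 7 B and plasma cell markers, of which 4 were called lower and none was at 0 in all libraries, summed to 9.61 to 19.3 CPM in AAV9-HSA-CAAHR and 127 to 432 CPM in AAV9-HSA-GFP muscles. Their part in the Pik3cd difference was not tested.

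Pik3ca (ENSMUSG00000027665), the p110α catalytic subunit that pairs with p85α in muscle, was chosen after its values were seen. It was at 74.9, 56.7 and 62.1 CPM against 56.4, 46.4 and 54.8 CPM, and its log2 fold change was 0.30 ± 0.12 (edgeR adjusted p 0.181). It did not pass the test.

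Akt2 (ENSMUSG00000004056, chromosome 7, 27591552 to 27640826), the AKT kinase of insulin-stimulated glucose uptake, was at 261, 311 and 281 CPM in AAV9-HSA-CAAHR and 292, 301 and 274 CPM in AAV9-HSA-GFP muscles. The AAV9-HSA-GFP libraries all lay inside the range of the AAV9-HSA-CAAHR libraries. The log2 fold change was -0.02 ± 0.11 and its 95% interval ran from -0.26 to 0.22 (edgeR adjusted p 0.930). Its sign turned under 4 alternatives, and it was not called in any of the 15. Akt1 (ENSMUSG00000001729), the isoform tied to growth, was at 55.2, 54.4 and 56.2 CPM against 51.6, 50.5 and 48.7 CPM. Its groups did not overlap, but its log2 fold change of 0.14 ± 0.08 did not pass the test (edgeR adjusted p 0.345).

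Of the Rab GTPase-activating proteins that hold GLUT4 vesicles inside the fibre, Tbc1d1 rose and Tbc1d4 did not pass the test. Tbc1d1 (ENSMUSG00000029174, chromosome 5, 64156305 to 64351486) was at 116, 119.7 and 135 CPM in AAV9-HSA-CAAHR and 78.6, 92.5 and 77.8 CPM in AAV9-HSA-GFP muscles, and the groups did not overlap. Means were 124 ± 10.1 and 83.0 ± 8.23 CPM (SD, n = 3), and the log2 fold change was 0.58 ± 0.11 (95% interval 0.33 to 0.82, edgeR adjusted p 0.0134). Tbc1d4 (ENSMUSG00000033083, chromosome 14, 101442360 to 101609191) was at 40.4, 26.5 and 38.7 CPM against 49.7, 44.7 and 39.6 CPM. CAAHR replicate 31 was just above GFP replicate 46, so the groups overlapped, and the log2 fold change was -0.34 ± 0.16 (-0.71 to 0.02, edgeR adjusted p 0.239). Without CAAHR replicate 34, the lowest library, it was -0.18.

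The Tbc1d1 call held in fewer alternatives than those of Pik3r1 and Igf1, in 11 of 15, with log2 fold changes from 0.50 to 0.66. It was lost without CAAHR replicate 36 (edgeR adjusted p 0.0583), without GFP replicate 42 (0.0505), without GFP replicate 46 (0.0584) and with the slow fibre covariate (0.198).

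**Figure D3:**
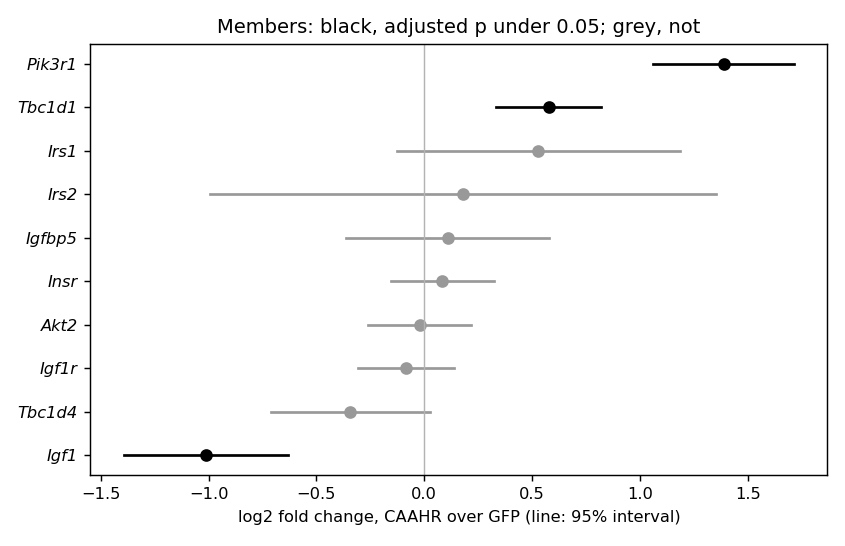
Log2 fold change of each member, AAV9-HSA-CAAHR over AAV9-HSA-GFP, from the edgeR fit of all genes (points) with its 95% interval (lines), called genes in black and the others in grey. Intervals of Pik3r1 (1.06 to 1.71), Tbc1d1 and Igf1 lie away from 0, and that of Irs2 is the widest (-0.99 to 1.35).

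Related genes were also set against each other within each library, as a ratio of counts per kilobase of exon, which does not depend on how libraries are scaled. Tbc1d4 to Tbc1d1 was 0.335, 0.214 and 0.277 in AAV9-HSA-CAAHR and 0.610, 0.466 and 0.491 in AAV9-HSA-GFP muscles. Every AAV9-HSA-CAAHR ratio was below every AAV9-HSA-GFP ratio, and the log2 ratios differed by -0.94. The p of the two-sided exact permutation test was 0.1, which is the smallest that 3 libraries against 3 can give, and 0.4 after adjustment over 4 pairs. By this test no pair could pass 0.05 with 3 libraries against 3.

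The other ratios overlapped between the groups. Geometric means with CAAHR and with GFP were 5.25 and 4.69 for Insr to Igf1r (exact permutation p = 0.5). They were 0.356 and 0.279 for Irs1 to Irs2 (exact permutation p = 0.8), and 2.95 and 3.30 for Akt2 to Akt1 (exact permutation p = 0.3). The adaptor ratio varied most between libraries of 1 group, with Irs1 to Irs2 between 0.183 in CAAHR replicate 34 and 0.573 in CAAHR replicate 31.

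**Figure D4:**
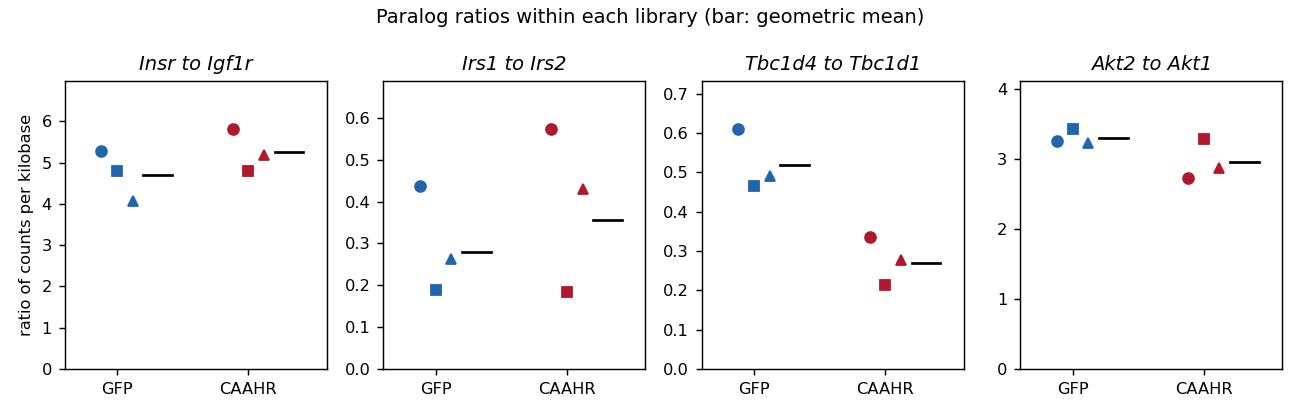
Ratio of counts per kilobase of exon between related genes in each library (y axes from 0), with AAV9-HSA-GFP in blue, AAV9-HSA-CAAHR in red and a bar for the geometric mean of the group. The Tbc1d4 to Tbc1d1 panel (0.214 to 0.335 against 0.466 to 0.610) is the 1 of 4 in which the groups do not overlap.

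Levels were ordered per kilobase of exon, in TMM-scaled CPM per kilobase, to allow for the length of each gene. The length, here and in the ratios, was that of all annotated exons of a gene together. It need not be that of the forms expressed in muscle, so the order between genes is approximate. In AAV9-HSA-GFP muscles the order of mean levels was Igfbp5 (113 ± 22.4, SD, n = 3), Akt2 (40.5 ± 1.96), Tbc1d1 (11.2 ± 1.11), Irs2 (6.36 ± 2.56), Tbc1d4 (5.82 ± 0.663), Insr (4.71 ± 0.355), Pik3r1 (2.61 ± 0.462), Irs1 (1.71 ± 0.347), Igf1 (1.06 ± 0.05003) and Igf1r (1.01 ± 0.0757). The ranges of Irs2 and Tbc1d4 overlapped, as did those of Igf1 and Igf1r, and other neighbours in the order were apart. In AAV9-HSA-CAAHR muscles Pik3r1 stood at 6.83 ± 0.895, rank 5 in the order, where its range overlapped that of Irs2 and lay above that of Insr (4.99 ± 0.516). Igf1 was last there at 0.527 ± 0.129, below Igf1r at 0.948 ± 0.0406, and these did not overlap.

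The rest of the pathway was read from 8 lists with 105 other genes, of which 99 were tested. Of these 99, 6 were called (6.06%), 3 higher and 3 lower, which is near the 7.60% of all tested genes. Groups did not overlap for 24 of the 99, against 29.9% of all tested genes, and the median log2 fold change was 0.02. By list, 1 of 2 tested ligands and receptors was called higher (Igf2r). Of 13 other adaptors and Ras-MAPK genes, 0 were called by edgeR, DESeq2 or limma-voom, with 0 at an unadjusted p under 0.05. Of 15 pathway inhibitors edgeR called 0 (2 at an unadjusted p under 0.05), DESeq2 1 and limma-voom 0. Of 8 FoxO factors and glucose storage enzymes edgeR called 0 (3 at an unadjusted p under 0.05), DESeq2 3 and limma-voom 1. Over all 99, DESeq2 called 11, the 6 called by edgeR among them, against 1919 of all 15847 tested genes. By edgeR, 23 of the 99 were at an unadjusted p under 0.05, near the 23.9% of all tested genes. The limma-voom fit called 1402 of the 15847.

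The mTOR arm, which couples the pathway to protein synthesis, had 21 tested genes with 1 called higher and 2 lower (14.3%, against 7.60% of all tested genes). Rptor (ENSMUSG00000025583), the RAPTOR subunit of mTOR complex 1, was at 42.1, 40.0 and 45.8 CPM in AAV9-HSA-CAAHR and 33.1, 27.5 and 30.5 CPM in AAV9-HSA-GFP muscles (log2 fold change 0.49 ± 0.10, edgeR adjusted p 0.0196). Eif4ebp1 (ENSMUSG00000031490), the translation repressor 4E-BP1 that mTOR complex 1 inactivates, was at 20.8, 27.3 and 29.9 CPM against 40.9, 48.7 and 55.9 CPM (log2 fold change -0.90 ± 0.16, edgeR adjusted p 0.0111). Ddit4l (ENSMUSG00000046818), the mTOR inhibitor REDD2, was at 158, 134 and 133 CPM against 317, 227 and 189.6 CPM (log2 fold change -0.78 ± 0.18, edgeR adjusted p 0.0337). In all 3 genes the groups did not overlap, which was so for 8 of the 21 genes and for 29.9% of all tested genes.

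Over the 21 genes of the list, 11 had a log2 fold change above 0 and 10 below. The Eif4ebp1 call was lost under 1 alternative, the slow fibre covariate. Rptor was not called without CAAHR replicate 31 or 36, nor without GFP replicate 43 or 46, and Ddit4l was called with 1 library left out only when that was GFP replicate 46. Mtor (ENSMUSG00000028991) itself was at 55.1, 40.5 and 61.7 CPM against 39.1, 38.8 and 39.6 CPM, with a log2 fold change of 0.42 ± 0.14 that did not pass the test (edgeR adjusted p 0.105). CAAHR replicate 34, the library low in slow fibre markers, was the closest of its group to the AAV9-HSA-GFP libraries for Mtor, and without it Mtor was called (edgeR adjusted p 0.00526). The part of fibre type in the Mtor values was not tested.

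At the end of the pathway, Slc2a4 (ENSMUSG00000018566), which encodes GLUT4, was at 419.8, 434 and 444 CPM in AAV9-HSA-CAAHR and 366, 472 and 420.1 CPM in AAV9-HSA-GFP muscles. The AAV9-HSA-CAAHR libraries all lay inside the range of the AAV9-HSA-GFP libraries, and the log2 fold change of 0.04 ± 0.12 had a 95% interval from -0.22 to 0.31 (edgeR adjusted p 0.867). Of 18 tested genes of GLUT4 and its trafficking, 1 was called higher and 0 lower (5.56%, against 7.60% of all tested genes). This was Lnpep (ENSMUSG00000023845), the insulin-regulated aminopeptidase that travels with GLUT4, at 4.84, 3.76 and 4.61 CPM against 3.13, 2.67 and 2.49 CPM (log2 fold change 0.67 ± 0.17, edgeR adjusted p 0.0442). The Lnpep call was lost in 5 of 6 fits that left out a library.

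Foxo1 (ENSMUSG00000044167), a transcription factor held out of the nucleus by AKT and known to raise Irs2 and Igfbp genes in other tissues, was at 43.3, 29.0 and 45.0 CPM against 27.0, 40.2 and 23.2 CPM. The groups overlapped, and the log2 fold change of 0.38 ± 0.24 did not pass the test (edgeR adjusted p 0.402).

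**Figure D5:**
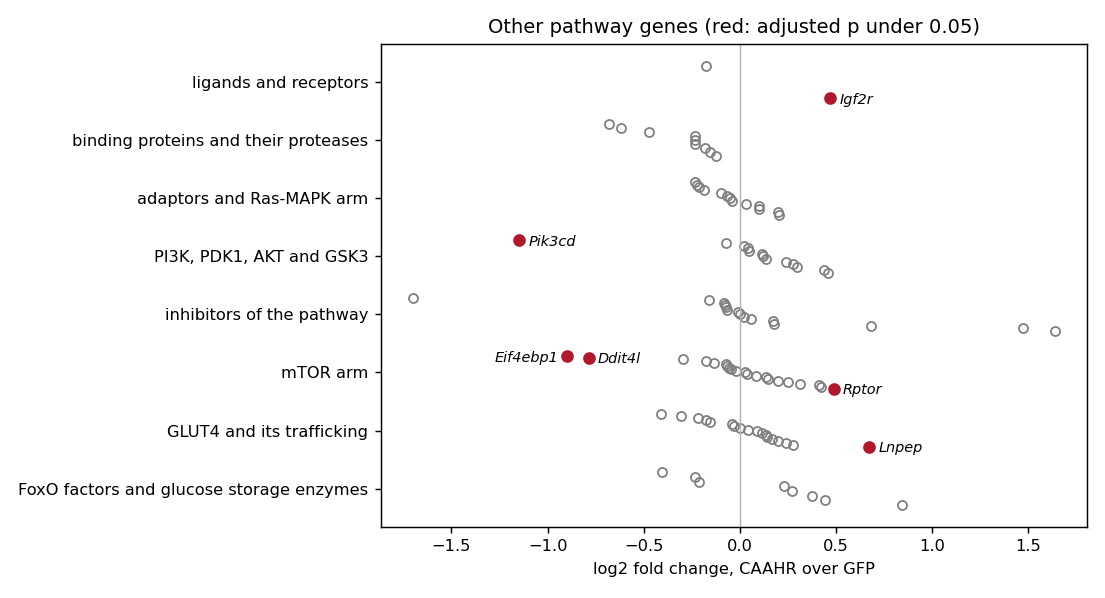
Log2 fold change (AAV9-HSA-CAAHR over AAV9-HSA-GFP, x axis) of each tested gene of the 8 pathway lists, with genes called by edgeR picked out and named. The 3 called higher are Igf2r, Rptor and Lnpep and the 3 called lower are Pik3cd, Eif4ebp1 and Ddit4l. All 9 genes of the binding protein list lie below 0 and none of them was called, while 7735 of all 15847 tested genes lie below 0.

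Across the 6 libraries, the pathway gene whose log2 CPM was most like that of Pik3r1 was Igf2r (Pearson r 0.937), which was also the one most like Tbc1d1 (0.957). For Igf1 it was Mapkap1, a subunit of mTOR complex 2 (0.910, log2 fold change -0.04). These values describe 6 libraries that share their groups, so genes called in the same direction are alike by that alone.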

How the data were processed

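Raw counts per gene, with no normalisation, were deposited by the authors for 3 AAV9-HSA-CAAHR and 3 AAV9-HSA-GFP libraries. Per the authors, poly(A) RNA was sequenced as paired ends, trimmed with Trimmomatic 0.36, aligned to GRCm38 with STAR 2.5.2b and counted over exons with featureCounts. Whether counting used strand is not stated for these libraries. Library totals of 43432994 to 58825752 counts set the precision of low genes.

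The tests used edgeR 4.0.16 under R 4.3.3 (filterByExpr, scaling by TMM, the trimmed mean of M values, robust quasi-likelihood F test, Benjamini-Hochberg over 15847 genes, threshold 0.05). CPM values are TMM-scaled, SEs came from the F statistic and intervals are 95%. DESeq2 1.42.0, limma 3.58.1 (voom with sample weights), other scalings and filters, a slow fibre covariate and leaving out each library were alternatives. Exon lengths and positions came from GENCODE on GRCm38, in which 49056 of 49315 genes were found. Ratios used counts per kilobase with 0.5 counts added. The calculations were tested on simulated data. Within each group all pairs of libraries differed by more than sampling noise.

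The members and pathway and marker lists were chosen with earlier results of these data known. Named genes were the members, every called pathway gene, and Slc2a4, Foxo1, Akt1, Igf2 and Mtor, with the pathway gene most alike to each called member. Others are given as chosen after their values were seen. Protein sequences were not used here, and 1 gene that the naming rule listed is not reported here.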

Additional observations from a re-analysis of the deposited data

How the results depend on the processing

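No paired analysis was possible because no replicate number occurs in both groups. Of 10 members, 3 were called as reported, and from 2 to 4 over the 15 alternatives, the fourth being Tbc1d4 with no filter on low counts (adjusted p 0.04998). Of 15847 genes 1205 were called as reported, against 2470 with no filter (1181 shared), 1919 with the DESeq2 Wald test (1200 shared), 436 with the slow fibre covariate (249 shared) and 530 (without CAAHR replicate 36) to 1727 (without CAAHR replicate 34) with 1 library left out. Higher and lower calls, 481 and 724 as reported, were 358 and 990 with upper quartile scaling and 876 and 600 with library size only, which moved the all-gene median by -0.07 and 0.08. Of the other pathway genes 6 were called as reported, against 15 with no filter, 11 with DESeq2, 3 with the slow fibre covariate (Igfbp4, Igfbp6 and Gys1, 0 shared) and from 3 to 14 with 1 library left out. The count was 3 without CAAHR replicate 31 or 36 or GFP replicate 42 or 46, 4 without GFP replicate 43, and 14 without CAAHR replicate 34. The slow fibre covariate did not overlap between the groups and takes a degree of freedom, so it does not fully separate fibre type from the vector. With it Pik3cd (edgeR adjusted p 0.0600) and Eif4ebp1 (0.166) lost their calls, as did Rptor, Igf2r, Ddit4l and Lnpep. Ddit4l was also lost with library size only and Lnpep with upper quartile scaling. The cause of these shifts was not tested.

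Genes that were not called changed sign as follows. With the slow fibre covariate log2 fold changes were -0.11 for Insr, 0.22 for Akt2, -0.011 for Slc2a4, -0.20 for Foxo1 and -0.13 for Mtor. Members that kept their sign but moved by over 1.5 times with it were Irs2 (0.18 to 1.19), Igfbp5 (0.11 to 0.84), Irs1 (0.53 to 0.31), Igf1r (-0.08 to -0.21) and Tbc1d4 (-0.34 to -0.83). None of these was called with it. Signs also changed with limma-voom, where log2 fold changes were -0.040 for Igfbp5 and -0.14 for Irs2. With library size only it was 0.058 for Akt2, and with upper quartile scaling -0.028 for Slc2a4. With 1 library left out, Igfbp5 ranged from -0.10 to 0.27 (-0.022 without GFP replicate 46), Irs2 from -0.30 to 0.56, Akt2 from -0.10 to 0.031 (0.0080 without GFP replicate 43) and Slc2a4 from -0.043 to 0.14. Of 150 checks of members, 135 kept direction and side of the threshold, 4 lost a call, 1 gained one and 10 changed sign. Of 165 checks of the 11 other named pathway genes, the numbers were 130, 26, 4 and 5. The gains were Mtor with no filter, with limma-voom and without CAAHR replicate 34, and Foxo1 with no filter. The difference in the log2 ratio of Tbc1d4 to Tbc1d1 ranged from -1.09 to -0.77 with 1 library left out.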

Other observations

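Genes of the pathway that did not pass the edgeR test but whose libraries stood far apart were chosen after their values were seen, and are given as values. Socs3, a cytokine-induced inhibitor of insulin and IGF receptor signalling, was at 1.84, 3.76 and 11.1 CPM in AAV9-HSA-CAAHR replicates 31, 34 and 36 and at 14.2, 21.2 and 19.3 CPM in AAV9-HSA-GFP replicates 42, 43 and 46, without overlap (log2 fold change -1.70 ± 0.68 SE, edgeR adjusted p 0.218). The related inhibitor Socs1 was at 1.15, 2.38 and 4.86 CPM against 0.456, 1.54 and 0.736 CPM, with overlap (1.64 ± 0.63, edgeR adjusted p 0.172). Inpp4b, a phosphatase of PI3K lipids, was at 21.2, 4.55 and 14.4 CPM against 4.19, 5.22 and 5.02 CPM. CAAHR replicate 34 lay within the AAV9-HSA-GFP range for Inpp4b, while replicates 31 and 36 lay above it (log2 fold change 1.47 ± 0.56, edgeR adjusted p 0.194).

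The glycogen genes of the lists pointed in different directions. Ppp1r3c, a glycogen-targeting subunit of protein phosphatase that promotes glycogen synthesis, was at 916, 990.3 and 899.5 CPM against 404, 773 and 388 CPM, without overlap (log2 fold change 0.84 ± 0.26, edgeR adjusted p 0.0906). Gys1, the muscle glycogen synthase, was at 393, 307 and 372 CPM against 423, 451 and 545 CPM, also without overlap (-0.41 ± 0.14, edgeR adjusted p 0.105). Foxo3, an AKT-restrained transcription factor, was at 33.01 to 42.1 CPM against 24.3 to 29.9 CPM (0.44 ± 0.12, edgeR adjusted p 0.0526). Igfbp4, an inhibitory IGF-binding protein, was at 21.8 to 32.8 CPM against 36.8 to 49.1 CPM (-0.62 ± 0.16, edgeR adjusted p 0.0525). All 4 were called by DESeq2 and none by edgeR with the settings of the report.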
